A study of Sus scrofa with 28 samples.

Results

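CDKN1A and GSTP1 are 2 of the 73 kidney genes measured by high-throughput qPCR, together with 4 reference genes, in kidney cortex of 28 adult, castrated male Göttingen Minipigs, a small pig strain used as a model of human metabolic disease. Both genes were chosen by their names and selected on group differences already seen in these animals, so their levels in the groups are described here and carry no test. The study asked how the kidney changes in obesity and in diabetes. The SD group (n = 7) ate a standard pig diet, the FFC group (n = 13) a diet high in fat, fructose and cholesterol, and the FFC-DIA group (n = 8) a diet of the same kind in animals made diabetic by streptozotocin, which destroys pancreatic beta cells, and then kept on insulin. Per the study's methods the cholesterol content of the FFC diet was higher in the FFC group than in FFC-DIA during the early part of the study and equal afterwards, so that diabetes and this difference in diet cannot be told apart between FFC-DIA and FFC. All animals were castrated, and the diabetic animals had both the diet and the toxin, so that no group was diabetic on standard diet. Each animal gave 1 sample, and p-values measure the spread between animals. The study's methods name a cohort of animals as a factor in other models. The labels do not give it, so its part in the values was not tested.

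CDKN1A encodes p21, an inhibitor of the cyclin-dependent kinases that halts the cell cycle before DNA replication. It is transcribed under p53 after DNA damage and also in response to TGF-beta, and it is used as a marker of cell cycle arrest and senescence in tubular and glomerular cells of the kidney. GSTP1 encodes a glutathione S-transferase, a cytosolic enzyme that joins glutathione to reactive and toxic compounds, and which also binds and restrains the stress kinase JNK. In the kidney it is known mainly from the distal parts of the nephron.

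Each gene was read by 1 primer pair, and these pairs are shown because they define which transcript every value below counts. They are given 5′ to 3′.
CDKN1A forward: aggaccatgtggacctgttg
CDKN1A reverse: ccggcgtttggagtggtaga
GSTP1 forward: cctggtggacatggtgaatga
GSTP1 reverse: gctccttcacgtacttctcctt
The primers were 20 to 22 bases long and 50 to 60% of their bases were G or C. No coordinates are given, as the sources used here name no genome build for the assays.

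The measured quantity was the quantification cycle (Cq), the PCR cycle at which the fluorescence crosses a threshold. A lower Cq means more transcript, and 1 cycle stands for a factor of 2 when the product doubles each time. The Cq of CDKN1A ran from 9.18 to 15.5 over the 28 animals and that of GSTP1 from 6.72 to 10.0. Levels are given on 2 log2 scales, both with the SD mean set to 0. The first subtracts the Cq of the gene from the average of 3 reference genes, namely ACTB, TBP1 and RPL4. The second is relative to the mean of all 73 kidney genes of the same animal, here called the panel mean. The reference genes did not vary alike. The standard deviation of the Cq over the 28 animals was 0.55 for ACTB, 0.69 for TBP1, 1.26 for RPL4 and 2.54 for GAPDH, the last not used as a reference here. The GAPDH value includes SD animal 6, with a Cq of 20.6. Within FFC and FFC-DIA the standard deviation of GAPDH was 1.57 and 1.19, next to 1.24 and 1.07 for RPL4. A late RPL4 raises the level of every gene of that animal on the first scale, and the panel mean removes that term. qPCR has no read depth, and the number of animals limits the precision.

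The diabetic animals had the highest levels of CDKN1A. On the reference-gene scale the 8 FFC-DIA animals lay, from low to high, at 1.78, 2.21, 2.62, 2.64, 2.86, 3.18, 3.46 and 4.18. In SD the level ran from -0.73 over a median of 0.01 to 0.75, and in FFC from -0.73 over a median of 0.20 to 1.63. Every FFC-DIA animal was above all 20 other animals, while SD and FFC overlapped. On this scale that was true of 1.37% of the 73 genes, which is CDKN1A alone, and since that pattern chose the gene nothing is read from the share. The unscaled Cq of CDKN1A did not overlap either, at 9.18 to 11.2 in FFC-DIA, 12.4 to 15.4 in SD and 12.1 to 15.5 in FFC. The mean log2 level was 2.87 ± 0.75 (SD, n = 8) in FFC-DIA, 0.28 ± 0.59 (SD, n = 13) in FFC and 0 ± 0.57 (SD, n = 7) in SD. FFC-DIA thus differed from SD by 2.87 ± 0.34 (SE), a 7.29-fold higher level, and from FFC by 2.59 ± 0.31 (SE), which is 6.01-fold. FFC differed from SD by 0.28 ± 0.27 (SE), a size close to its own error and smaller than the median of 0.55 over the 73 genes.

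**Figure D1:**
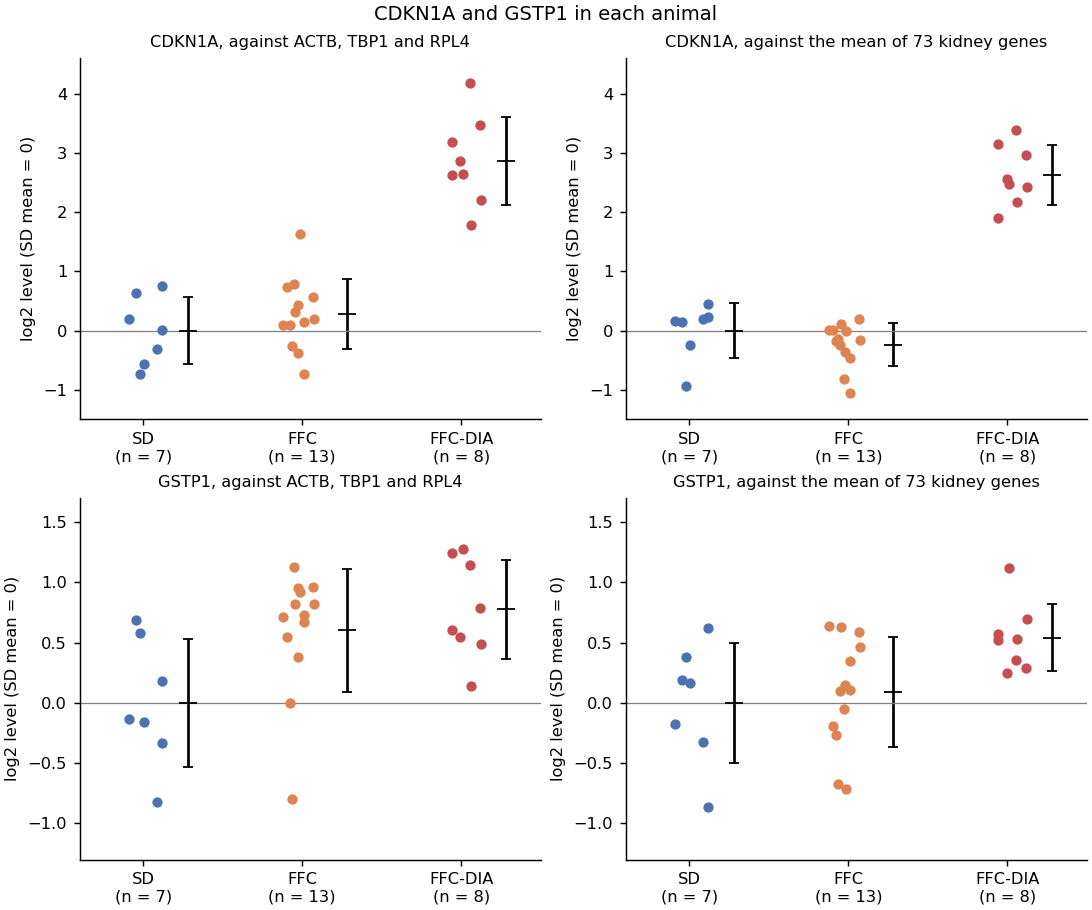
Each point is the log2 level of 1 animal (vertical axis, SD mean at 0) by group (horizontal axis), for CDKN1A above and GSTP1 below, against the reference genes on the left and the panel mean on the right, with bars at the mean ± SD. The 8 FFC-DIA animals lie above all 20 others for CDKN1A on both scales, whereas for GSTP1 the groups overlap.

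The gap was narrow on the reference-gene scale and wide on the panel-mean scale. The lowest FFC-DIA animal (animal 1, 1.78) lay only 0.15 above the highest other animal, FFC animal 9 at 1.63. That FFC animal had an RPL4 Cq of 11.6, the latest RPL4 of all animals. Relative to the panel mean its CDKN1A level was -0.014, and the highest of the other animals was SD animal 2 at 0.45. The lowest FFC-DIA animal then lay at 1.91 (animal 8), which leaves a gap of 1.46. On this scale, too, CDKN1A was the only gene with all FFC-DIA animals above the rest, again 1.37% of the 73 genes. Its mean panel-scale level was 2.63 ± 0.50 (SD, n = 8) in FFC-DIA, -0.24 ± 0.36 (SD, n = 13) in FFC and 0 ± 0.46 (SD, n = 7) in SD. FFC-DIA minus SD was the largest difference of the 73 genes on both scales, and so was FFC-DIA minus FFC.

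The ratio of CDKN1A to another gene of the same animal is a difference of 2 Cq values and needs no reference. For 53 of the other 72 kidney genes (73.6%) this ratio was higher in all 8 FFC-DIA animals than in all 20 other animals. No ratio ran the other way. For the remaining 72 genes of the panel, the number of partners over which a gene was higher in every FFC-DIA animal was 0. Each ratio of CDKN1A, here and below, holds the CDKN1A values that chose the gene. Nothing is therefore read from these counts or from their contrast with 0. Among the 19 genes over which CDKN1A did not separate the groups were VEGFA, the vascular growth factor (3 of 8 FFC-DIA animals above all others), and MRC1, a macrophage receptor (7 of 8). With each animal left out in turn, a run added after the data had been seen, the count lay between 53 and 58. Leaving an animal out cannot lower this count, so its lower end was fixed in advance.

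Against single reference genes the picture differed. CDKN1A over ACTB, the cytoskeletal actin, ran from -5.70 to -4.14 log2 units in FFC-DIA and from -8.65 to -6.93 in the others. CDKN1A over TBP1, a general transcription factor, ran from -0.28 to 1.72 against -2.91 to -1.02. Both ratios separated all 8 FFC-DIA animals from all other animals. Over RPL4, a ribosomal protein, only 2 of 8 FFC-DIA animals lay above all others, and the ranges were -4.27 to 0.10 and -6.28 to -1.65. Over GAPDH, a glycolytic enzyme, 0 of 8 did. In 1 SD animal (animal 6) the GAPDH Cq was 20.6, and without that animal 1 of 8 FFC-DIA animals lay above the rest.

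**Figure D2:**
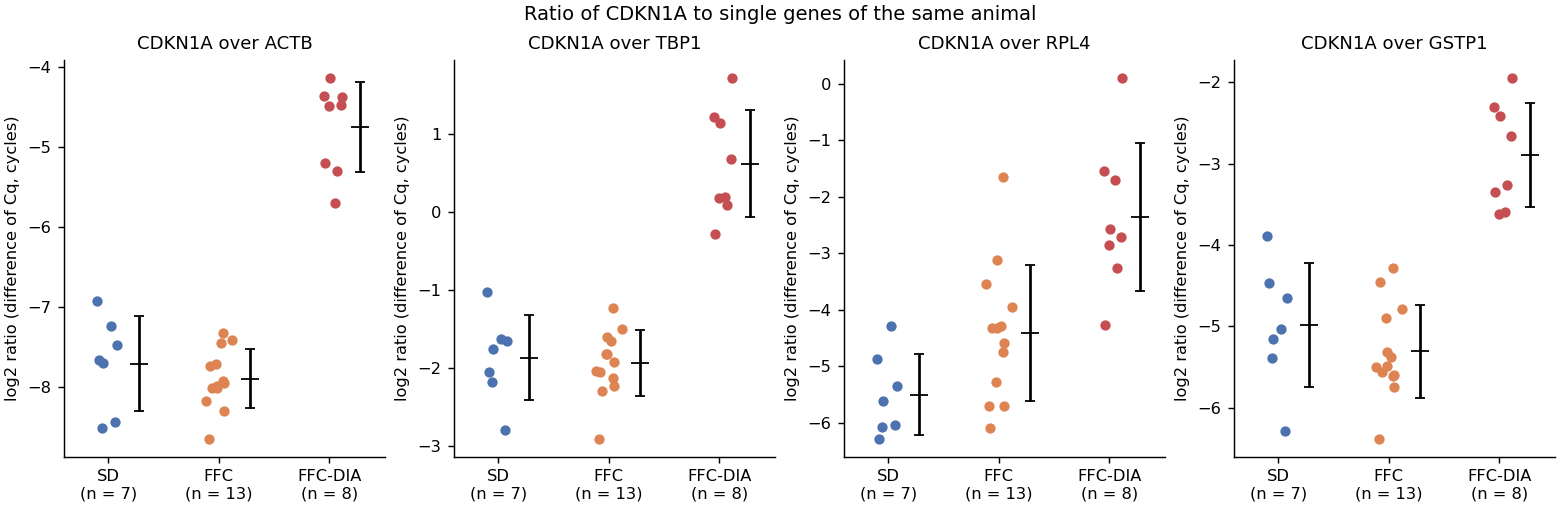
Log2 ratio of CDKN1A to ACTB, TBP1, RPL4 and GSTP1 in each animal (vertical axis, difference of Cq in cycles) by group (horizontal axis), with bars at the mean ± SD. All 8 FFC-DIA animals lie above all other animals for ACTB, TBP1 and GSTP1, and 2 of 8 do so for RPL4.

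GSTP1 differed far less, and its groups overlapped. On the reference-gene scale the FFC-DIA animals lay at 0.14, 0.49, 0.54, 0.60, 0.79, 1.14, 1.24 and 1.28. In SD the level ran from -0.82 over a median of -0.13 to 0.69, and in FFC from -0.80 over a median of 0.73 to 1.13. All 8 FFC-DIA animals were above the SD mean, 4 of them above every SD animal and 3 above every FFC animal. In FFC, 12 of 13 animals were above the SD mean and 8 above every SD animal. The means were 0.78 ± 0.41 (SD, n = 8) in FFC-DIA, 0.60 ± 0.51 (SD, n = 13) in FFC and 0 ± 0.53 (SD, n = 7) in SD. FFC-DIA differed from SD by 0.78 ± 0.25 (SE), or 1.71-fold, and FFC from SD by 0.60 ± 0.24 (SE), or 1.52-fold. FFC-DIA and FFC differed by 0.17 ± 0.20 (SE), less than the error. FFC-DIA minus SD ranked 7 of 73 from the top. The Cq of RPL4 moved with the groups, at 9.30 ± 1.24 (SD, n = 13) in FFC, 8.11 ± 1.07 (SD, n = 8) in FFC-DIA and 7.86 ± 0.84 (SD, n = 7) in SD, and this raises every gene in FFC on the reference-gene scale.

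When set against the panel mean, the FFC level of GSTP1 lay close to that of SD. It was 0.087 ± 0.46 (SD, n = 13), against 0.54 ± 0.28 (SD, n = 8) in FFC-DIA and 0 ± 0.49 (SD, n = 7) in SD. The difference between FFC and SD was 0.087 ± 0.23 (SE), and that between FFC-DIA and SD was 0.54 ± 0.21 (SE). FFC-DIA lay 0.45 ± 0.16 (SE) above FFC, with all 8 animals above the FFC mean and 2 above every FFC animal. Which of the groups GSTP1 set apart thus changed with the scale. Against the reference genes both FFC groups lay above SD, and against the panel mean FFC-DIA lay above both other groups. As a ratio to single genes, GSTP1 was higher in 6 of 8 FFC-DIA animals than in all others over ACTB, in 2 of 8 over TBP1 and in 0 of 8 over RPL4 or GAPDH.

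The dependence was traced through each reference gene. The difference of CDKN1A between FFC-DIA and SD was 2.96 with ACTB alone, 2.49 with TBP1 alone, 3.15 with RPL4 alone and 1.34 with GAPDH alone, and without SD animal 6, whose GAPDH Cq stood apart, the last was 2.92. That between FFC-DIA and FFC lay between 2.06 with RPL4 alone and 3.15 with ACTB alone. The FFC to SD difference of CDKN1A changed sign, from 1.09 with RPL4 alone to -0.19 with ACTB alone and -0.071 with TBP1 alone. For GSTP1 the difference between FFC-DIA and FFC was 0.73 with ACTB alone, 0.15 with TBP1 alone and -0.35 with RPL4 alone. With GAPDH alone FFC-DIA minus SD was -0.75 for GSTP1, and without SD animal 6 the sign turned, to 1.05.

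**Figure D3:**
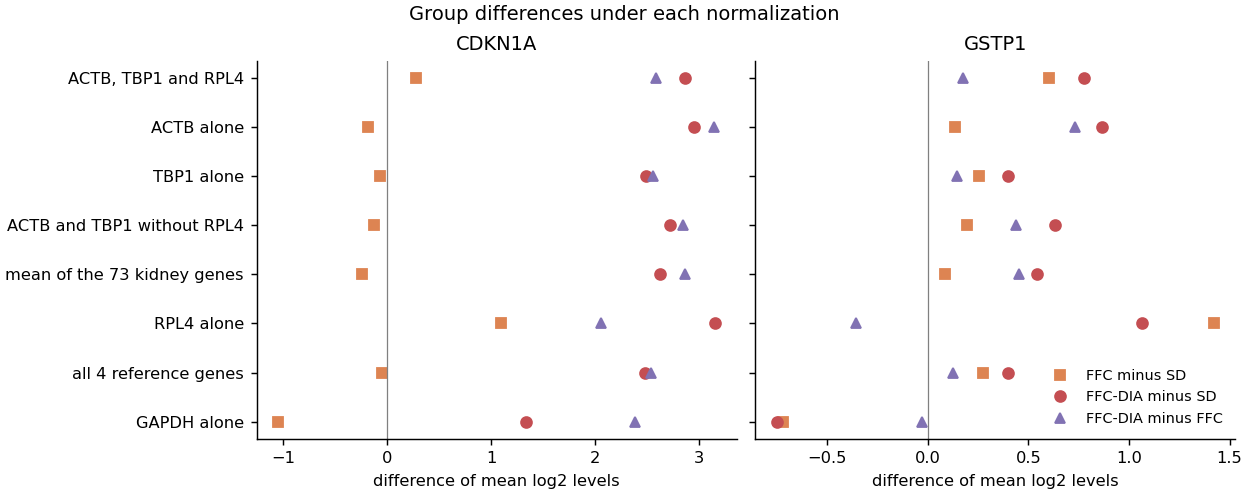
Difference of mean log2 levels (horizontal axis) for CDKN1A on the left and GSTP1 on the right under 8 normalizations (vertical axis), with squares for FFC minus SD, circles for FFC-DIA minus SD and triangles for FFC-DIA minus FFC. The circles and triangles of CDKN1A stay between 1.34 and 3.15, whereas those of GSTP1 lie on either side of 0. With GAPDH alone SD animal 6 decides the comparisons with SD, and without it FFC-DIA minus SD is 2.92 for CDKN1A and 1.05 for GSTP1.

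The ratio of CDKN1A to GSTP1, free of all references, was the only ratio of GSTP1 to separate the diabetic animals. Its log2 value lay between -3.62 and -1.95 in FFC-DIA, between -6.29 and -3.90 in SD and between -6.38 and -4.28 in FFC. The mean was -2.89 ± 0.64 (SD, n = 8) in FFC-DIA, 2.09 ± 0.37 (SE) above SD and 2.41 ± 0.28 (SE) above FFC. FFC and SD differed by -0.33 ± 0.33 (SE).

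Within FFC-DIA the level of CDKN1A varied 5.28-fold from the lowest to the highest animal on the reference-gene scale. Its standard deviation of 0.75 ranked 25 of 73 genes from the widest, against a median of 0.57 over the panel in that group. In SD it was 0.57 (rank 50) and in FFC 0.59 (rank 40). On the panel-mean scale the standard deviation in FFC-DIA was 0.50, next to a median of 0.50 over the panel, at rank 35, and the range narrowed to 2.79-fold. Animal 6 was highest on both scales, at 4.18 and 3.39, and it also had the latest RPL4 (10.2) and GAPDH (11.2) of the group. The lowest animal was animal 1 against the reference genes and animal 8 against the panel mean. With ACTB and TBP1 as the only references, animal 6 lay at 3.47 and animals 1 and 8 at 2.05 and 2.04. Without animal 6 the standard deviation on the reference-gene scale was 0.57. On the panel-mean scale CDKN1A thus varied about as much as the median gene of the diabetic group.

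GSTP1 was one of the less variable genes of the diabetic group. Its standard deviation was 0.41 against the reference genes (rank 59 of 73 from the widest) and 0.28 against the panel mean (rank 56). The fold range was 2.21 and 1.83. Animal 7 was highest on both scales, at 1.28 and 1.12. With RPL4 alone the standard deviations rose to 1.31 for CDKN1A and 1.03 for GSTP1, and with TBP1 alone they were 0.69 and 0.25.

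Which genes varied with each of the pair was asked inside groups, with every value centred on its group mean, so that the differences between groups played no part. Pearson's r was computed over the 28 animals for the other 72 genes, with 100000 permutations inside groups and Benjamini-Hochberg adjustment over the 72. On the reference-gene scale CDKN1A correlated with 54 genes, 75% of the panel, 53 of them positively, and the median r was 0.52. GSTP1 correlated with 36 genes, 50%, 35 of them positively, with a median r of 0.44. With the panel mean taken out, the medians were -0.0058 and 0.026, and the count was 0 for CDKN1A (0%) and 0 for GSTP1 (0%) in the same permutation test. Subtracting the mean of these same genes holds the median r near 0 by arithmetic, so nothing is read from those medians. At an unadjusted p under 0.05 there were 1 and 7 genes, and with Spearman's rho 0 and 3 genes passed. With ACTB and TBP1 as references, without RPL4, 0 genes passed for either.

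**Figure D4:**
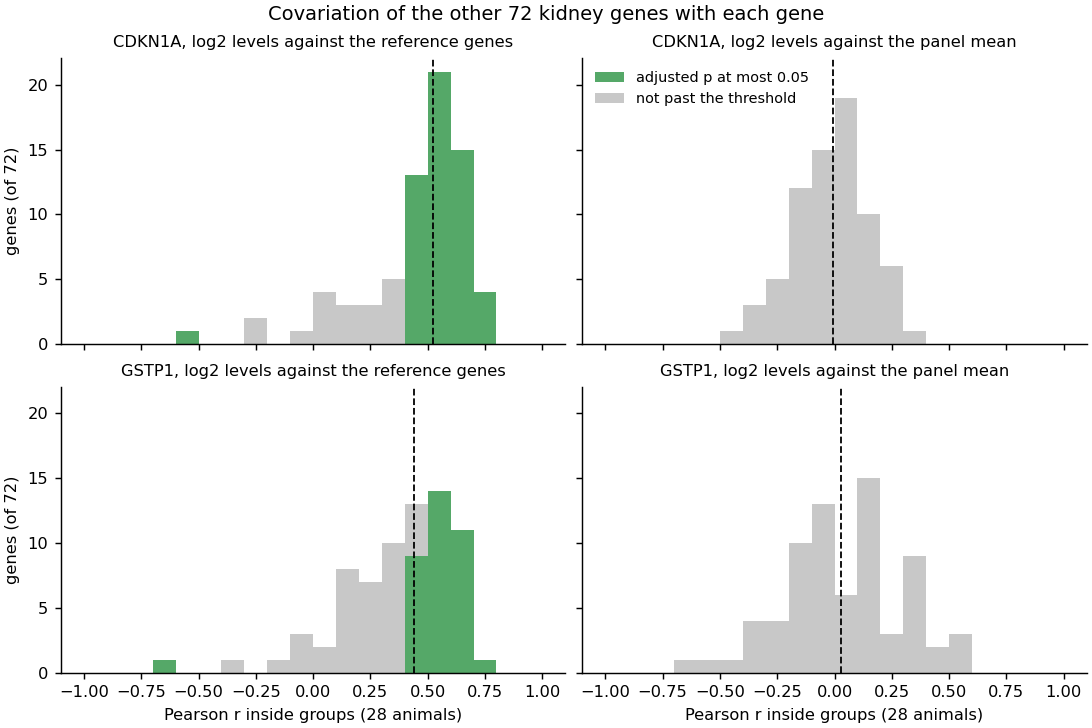
Number of genes (vertical axis) by Pearson r inside groups over 28 animals (horizontal axis), for CDKN1A above and GSTP1 below, against the reference genes on the left and the panel mean on the right, with genes at an adjusted permutation p of at most 0.05 in green and the dashed line at the median. The medians are 0.52 and 0.44 on the left and -0.0058 and 0.026 on the right, where centring holds them near 0 and no bar is green.

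The animal's own panel mean and its RPL4 moved with both genes. Every level on the reference-gene scale contains the same average of ACTB, TBP1 and RPL4, so a positive r is partly built in by arithmetic and these values are given with no test. Inside groups over the 28 animals, CDKN1A had r = 0.73 and rho = 0.67 with the mean of the other 72 genes, and r = 0.67 and rho = 0.63 with the delay of RPL4 behind ACTB and TBP1. For GSTP1 these were r = 0.58 and rho = 0.57, and r = 0.74 and rho = 0.74. Without the 2 animals farthest from the median r was 0.61 and 0.46 for CDKN1A and 0.47 and 0.69 for GSTP1. The same shared term enters each correlation counted above on that scale.

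The 5 genes closest to CDKN1A on the reference-gene scale were HIF1A, the hypoxia-inducible transcription factor, the TNF receptor TNFRSF1A, the pattern receptor TLR2, the fibronectin receptor subunit ITGA5 and the adhesion molecule VCAM1. HIF1A had r = 0.79 (permutation p = 1e-05, adjusted 0.00072) and rho = 0.82 (p = 1e-05, adjusted 0.00072). By group r was 0.74 in FFC-DIA, 0.88 in FFC and 0.76 in SD, and in FFC-DIA it was 0.12 without the 2 farthest animals. TNFRSF1A had r = 0.74 (permutation p = 3e-05, adjusted 0.00072) and rho = 0.78 (p = 4e-05, adjusted 0.00144). For TLR2, ITGA5 and VCAM1 r was 0.71, 0.70 and 0.70, with permutation p-values of 8e-05, 0.00013 and 2e-05, adjusted to 0.00115, 0.00134 and 0.00072. Their rho was 0.63, 0.67 and 0.56, with permutation p-values of 0.00208, 0.00106 and 0.00766. Without the 2 animals farthest from the median these 5 values of r lay between 0.54 for TLR2 and 0.68 for HIF1A. Each fell on the panel-mean scale, to 0.24 for HIF1A, 0.28 for TNFRSF1A, 0.26 for TLR2, 0.15 for ITGA5 and 0.22 for VCAM1, all with an adjusted permutation p of 0.98. With TBP1 alone HIF1A (r = 0.66), TNFRSF1A (0.61) and VCAM1 (0.56) passed at an adjusted permutation p of 0.0207, and with ACTB alone none of the 5 did.

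On the panel-mean scale the genes with the largest r to CDKN1A were TSP1, the matrix protein thrombospondin 1 (r = -0.41), the angiotensin-converting enzyme ACE (-0.33), the cytokine TGFB1 (-0.32), the basement membrane collagen COL4A2 (-0.31) and the complement factor C3 (0.31). None passed adjustment, and TSP1 had a permutation p of 0.0467 before it and 0.98 after it. The rho of TSP1 was -0.26 (permutation p = 0.263), and its r was -0.42 without the 2 farthest animals.

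In FFC alone, 29 of 72 genes (40.3%) correlated with CDKN1A on the reference-gene scale. HIF1A led with r = 0.88 (permutation p = 0.00016, adjusted 0.0115), rho = 0.87 (p = 0.00017, adjusted 0.0122) and r = 0.90 without the 2 farthest animals. By Spearman's rho 9 genes passed there, and on the panel-mean scale 0 did, with 0 at an unadjusted p under 0.05. In SD alone 0 of 72 passed the exact permutation test, 6 at an unadjusted p under 0.05, and 0 passed by rho. In FFC-DIA alone 2 of 72 genes (2.78%) passed, LCN2 and AGT, with 14 at an unadjusted p under 0.05 and 0 by rho. LCN2 encodes NGAL, a protein that injured tubules release, and AGT encodes angiotensinogen, the precursor of the angiotensins. AGT was named after its value had been seen.

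Across the 8 FFC-DIA animals LCN2 lay between -0.96 and 1.89 and AGT between -1.61 and 1.74 on the reference-gene scale. Animals 1 and 4, lowest in CDKN1A, were also the lowest in both genes, and animal 6 was the highest in all 3. For LCN2 r was 0.93 (exact permutation p = 0.00126, adjusted 0.0482), rho 0.93 (exact p = 0.00223, adjusted 0.0804) and r 0.77 without the 2 farthest animals. For AGT r was 0.93 (exact permutation p = 0.00134, adjusted 0.0482), rho 0.93 (exact p = 0.00223, adjusted 0.0804) and r 0.90 without those animals. The r to LCN2 was 0.58 in SD and 0.36 in FFC, and that to AGT 0.53 and 0.51. Whether the groups differ in r was not tested.

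With the panel mean taken out, r in FFC-DIA was 0.86 for both genes, with an exact permutation p of 0.00908 for LCN2 and 0.00816 for AGT, both adjusted to 0.163. On that scale r was -0.039 for LCN2 and -0.092 for AGT in SD and -0.033 and -0.052 in FFC. With ACTB alone r was 0.92 and 0.88, and with TBP1 alone 0.92 and 0.93, none past adjustment. The call was lost in most runs with 1 animal left out, although r changed little. With 1 of the 8 animals left out r stayed between 0.89 and 0.97 for LCN2 and between 0.87 and 0.96 for AGT. The adjusted exact permutation p rose above 0.05 without animal 1, 2, 4, 5, 6 or 7 for LCN2, to at most 0.35, and without animal 1, 2, 3, 4, 5, 6 or 7 for AGT, to at most 0.257.

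**Figure D5:**
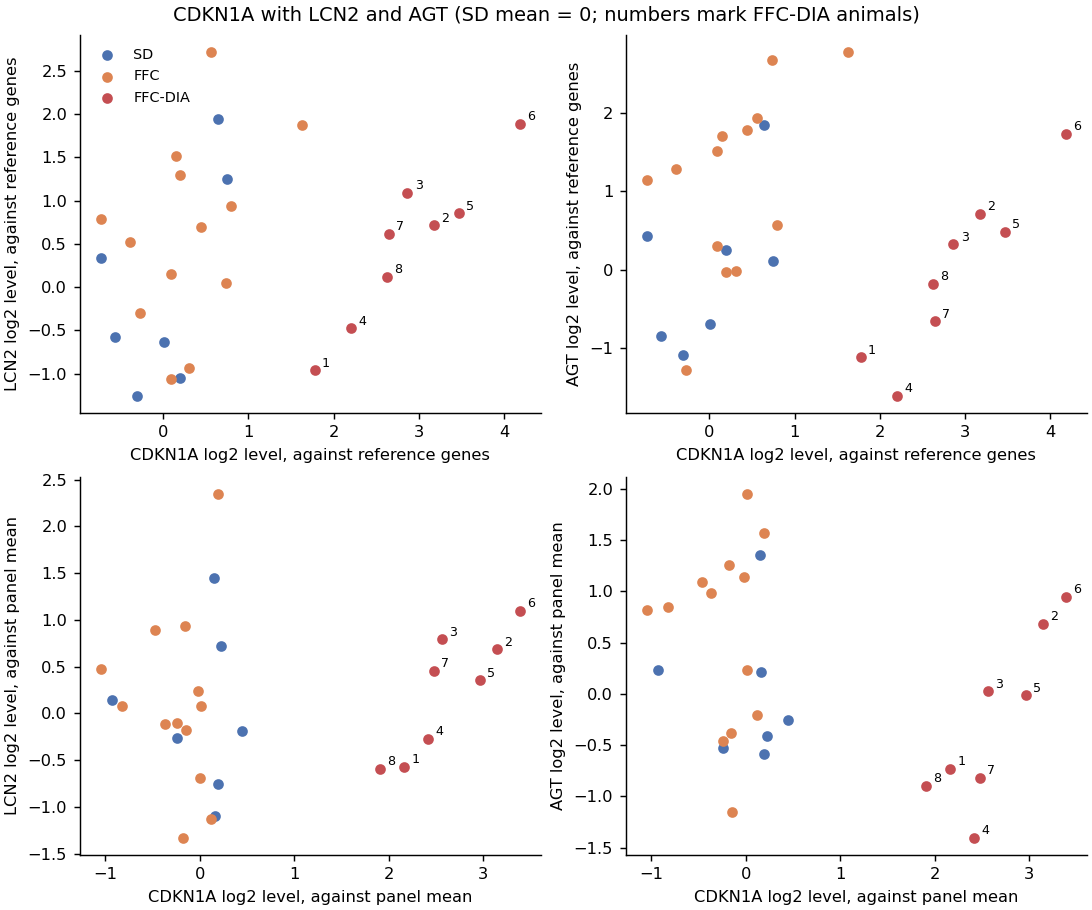
LCN2 on the left and AGT on the right (vertical axes) against CDKN1A (horizontal axes) as log2 levels in each animal, against the reference genes above and the panel mean below, with the FFC-DIA animals in red and numbered. Within FFC-DIA r was 0.93 in both upper and 0.86 in both lower panels, and the FFC-DIA animals lie to the right of all other animals.

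The 5 genes closest to GSTP1 on the reference-gene scale were the growth factor VEGFB, the epithelial cadherin CDH1, the TGF-beta signal mediator SMAD4, the endothelial cadherin CDH5 and the BMP antagonist GREM1. VEGFB had r = 0.73 (permutation p = 3e-05, adjusted 0.00162) and rho = 0.64 (p = 0.00168, adjusted 0.0134). Their r was 0.69 for CDH1, 0.67 for SMAD4, 0.67 for CDH5 and 0.66 for GREM1, with permutation p-values of 0.00015, 7e-05, 0.00016 and 9e-05, adjusted to 0.00185, 0.00162, 0.00185 and 0.00162. Their rho was 0.63, 0.65, 0.53 and 0.54, with permutation p-values of 0.00205, 0.00127, 0.0128 and 0.0112. Without the 2 farthest animals r lay between 0.51 for CDH5 and 0.63 for VEGFB. None of the 5 passed adjustment with ACTB alone or TBP1 alone. The count of 36 genes fell to 20 without SD animal 7 and to 20 without FFC animal 13, the 2 animals with the lowest GSTP1.

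Against the panel mean the leading genes for GSTP1 were CD80, a costimulatory molecule of antigen-presenting cells (r = -0.61), VEGFB (0.60), VCAM1 (-0.54), SMAD4 (0.52) and the podocyte and tubule actinin ACTN4 (0.51). CD80 had a permutation p of 0.00167 and VEGFB of 0.00216, both adjusted to 0.0778. Without the 2 farthest animals r of CD80 was -0.48, and its rho over all animals was -0.56 (permutation p = 0.00768). By rank VEGFB (rho = 0.70, permutation p = 0.00044, adjusted 0.0158) and ACTN4 (rho = 0.64, permutation p = 0.00163, adjusted 0.0391) passed. The third gene to pass by rank, LAMC1, a laminin chain, was named after its value had been seen (rho = 0.70, permutation p = 0.00037, adjusted 0.0158, with r = 0.38). For VEGFB r was 0.24 in FFC-DIA, 0.61 in FFC and 0.73 in SD. Without the 2 farthest animals it was 0.50.

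In FFC alone 13 of 72 genes (18.1%) correlated with GSTP1 on the reference-gene scale, among them ACTN4 (r = 0.78, permutation p = 0.00062, adjusted 0.0187) and CDH5 (r = 0.77, permutation p = 0.0009, adjusted 0.0187). By Spearman's rho 3 genes passed there, and on the panel-mean scale 0 passed by r or rho, with 15 at an unadjusted p under 0.05. In SD alone 0 of 72 passed the exact permutation test, 4 at an unadjusted p under 0.05, and 0 by rho. In FFC-DIA alone 0 of 72 (0%) passed the exact permutation test, 15 at an unadjusted p under 0.05, and 0 passed with Spearman's rho. The protease inhibitor TIMP1 had the highest r there, 0.92 (exact permutation p = 0.00144, adjusted 0.104), and was named after its value had been seen.

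Whether CDKN1A and GSTP1 varied with each other depended on the measure. On the reference-gene scale r inside groups was 0.37 (permutation p = 0.0565, adjusted 0.074) and rho 0.60 (permutation p = 0.00415, adjusted 0.0187), so that the pair passed by rank only. By group r was 0.51 in FFC-DIA, 0.48 in FFC and 0.043 in SD. Without SD animal 4 the pooled r was 0.43 (adjusted permutation p = 0.0431), and without SD animal 6 it was 0.47 (adjusted 0.0253). Against the panel mean r was -0.13 (permutation p = 0.52, adjusted 0.98) and rho 0.12 (permutation p = 0.613, adjusted 0.981), with r = -0.30 in FFC-DIA, 0.045 in FFC and -0.28 in SD.

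Genes near the pair in function were taken from 3 lists and compared between groups gene by gene, with a two-sided exact permutation test and Benjamini-Hochberg adjustment over the 73 genes. On the reference-gene scale 14 genes (19.2%) differed between FFC and SD, 2 (2.74%) between FFC-DIA and SD and 4 (5.48%) between FFC-DIA and FFC, with 13 higher and 1 lower, 2 higher and 0 lower, and 1 higher and 3 lower. The panel mean gave counts of 1 (1.37%), 3 (4.11%) and 6 (8.22%), with 0 higher and 1 lower, 2 higher and 1 lower, and 3 higher and 3 lower. These counts are over all 73 genes, so any call of CDKN1A or GSTP1 is among them and follows from how the pair was chosen. For CDKN1A and GSTP1, chosen on these comparisons, no test result is given or read. The median difference over the panel was 0.55, 0.21 and -0.33 on the first scale and 0.035, -0.023 and -0.048 on the second. The 14 calls between FFC and SD fell to 0 without SD animal 1, 2, 3 or 7 or without FFC animal 2, 8, 9 or 10. Without SD animal 4 or FFC animal 12 there were 9 and 7, without FFC animal 1 there were 3, without FFC animal 3, 5 or 7 there were 2, and without FFC animal 13 there were 24. With ACTB alone or TBP1 alone there were 0.

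The TGF-beta axis, through which CDKN1A can be induced, held 7 genes. Between FFC and SD 2 of 7 were higher on the reference-gene scale, SMAD4 by 0.65 ± 0.14 (SE, adjusted exact permutation p = 0.0448) and TSP1, which activates latent TGF-beta, by 0.84 ± 0.28 (SE, adjusted exact permutation p = 0.0448). Against the panel mean neither passed, with SMAD4 at 0.13 ± 0.15 (SE, adjusted exact permutation p = 0.8) and TSP1 at 0.32 ± 0.19 (SE, adjusted exact permutation p = 0.341). Between FFC-DIA and SD 0 of 7 passed, with 0 at an unadjusted p under 0.05, and between FFC-DIA and FFC 0 of 7, with 2 unadjusted. The median differences of the list were 0.58, 0.39 and -0.24. On the panel-mean scale FFC-DIA had TGFB1 higher than FFC by 0.25 ± 0.074 (SE, adjusted exact permutation p = 0.0479) and TSP1 lower by -0.47 ± 0.12 (SE, adjusted exact permutation p = 0.0261). Against the reference genes neither passed, and TGFB1 had the opposite sign, at -0.027 ± 0.20 (SE, adjusted exact permutation p = 0.919), while TSP1 was at -0.75 ± 0.21 (SE, adjusted exact permutation p = 0.0537). The ratio of CDKN1A to 6 of the 7 genes separated FFC-DIA from all other animals, next to 53 of 72 over the panel.

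The secreted factors associated with senescence held 10 genes, cytokines, chemokines, protease inhibitors and a metalloproteinase. Between FFC and SD 1 of 10 was higher on the reference-gene scale, the protease inhibitor TIMP2 by 0.88 ± 0.30 (SE, adjusted exact permutation p = 0.0448), and against the panel mean it was at 0.36 ± 0.12 (SE, adjusted exact permutation p = 0.117). Between FFC-DIA and SD 0 of 10 passed, with 1 at an unadjusted p under 0.05, and between FFC-DIA and FFC 0 of 10, with 2 unadjusted. Against the panel mean 0 of 10 passed in each comparison, with 3, 2 and 0 unadjusted. The median difference between FFC-DIA and SD was -0.003 on the first scale and -0.24 on the second. The level of CDKN1A over 6 of these 10 genes separated FFC-DIA from the rest, again next to 53 of 72.

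The list of injury, hypoxia and oxidative stress held 8 genes. VEGFA was lower in FFC than in SD by -0.66 ± 0.20 (SE, adjusted exact permutation p = 0.0448) on the reference-gene scale. Against the panel mean its difference was larger but did not pass, at -1.18 ± 0.38 (SE, adjusted exact permutation p = 0.117). SLC2A1, the glucose transporter GLUT1, was lower in FFC-DIA than in FFC by -0.99 ± 0.23 (SE, adjusted exact permutation p = 0.0105), and by -0.71 ± 0.21 (SE, adjusted exact permutation p = 0.0261) relative to the panel mean. Between FFC-DIA and SD 0 of 8 passed on either scale, with 1 and 2 at an unadjusted p under 0.05. CDKN1A over 6 of the 8 genes separated FFC-DIA from the rest. VEGFA was the 1 gene of the panel with a called negative r to CDKN1A (r = -0.60, permutation p = 0.00221, adjusted 0.00604, rho = -0.33) and likewise to GSTP1 (r = -0.62, permutation p = 0.00042, adjusted 0.00336, rho = -0.23). Relative to the panel mean its r was -0.068 and 0.24. Inside groups, the median r of CDKN1A to the genes of the 3 lists was 0.51, 0.55 and 0.50 on the reference-gene scale, next to 0.52 over all genes, and for GSTP1 it was 0.52, 0.44 and 0.47 next to 0.44. In these lists 6 of 7, 9 of 10 and 6 of 8 genes correlated with CDKN1A, next to 54 of 72 over the panel, and 5 of 7, 5 of 10 and 5 of 8 with GSTP1, next to 36 of 72. On the panel-mean scale 0 genes of each list passed the permutation test for either.

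In bulk tissue fewer cells of a type and less RNA per cell cannot be told apart. The markers of 6 cell types, 15 genes in all, were detected in every animal, the podocyte and tubule markers of kidney cortex among them. The ratio of CDKN1A to 12 of the 15 separated all FFC-DIA animals from all others, next to 53 of 72 over the panel. The exceptions were WT1 (3 of 8 FFC-DIA animals above all others), CD8A (5 of 8) and MRC1 (7 of 8). Each ratio holds the CDKN1A values that chose the gene, so nothing about the markers is read from this count. Between FFC-DIA and SD 0 of 15 markers passed the exact permutation test on the reference-gene scale, 2 at an unadjusted p under 0.05. Relative to the panel mean the macrophage marker CD68 was higher in FFC-DIA than in FFC by 0.72 ± 0.19 (SE, adjusted exact permutation p = 0.0261), the 1 of 3 macrophage genes to pass. With the reference genes CD68 did not pass, at 0.44 ± 0.29 (SE, adjusted exact permutation p = 0.347). ADGRE1, another macrophage gene, had the opposite sign in the same comparison, at -0.22 ± 0.18 (SE, adjusted exact permutation p = 0.518) against the panel mean and -0.50 ± 0.22 (SE, adjusted exact permutation p = 0.214) against the reference genes. On the panel-mean scale the summed relative level of CD68, MRC1 and ADGRE1 ran from 2.73 to 7.04 in FFC-DIA. It ran from 2.37 to 5.09 in FFC and from 2.39 to 4.04 in SD. Against the reference genes this sum ran from 3.20 to 11.6 in FFC-DIA, 3.01 to 10.3 in FFC and 1.69 to 5.81 in SD. CDKN1A over CD68 was higher in all 8 FFC-DIA animals than in all others, with a gap of 0.255 log2 units between the groups. CD8A, a marker of cytotoxic T cells, was lower relative to the panel mean in FFC by -1.40 ± 0.35 (SE, adjusted exact permutation p = 0.0264) and in FFC-DIA by -1.04 ± 0.34 (SE, adjusted exact permutation p = 0.0416) than in SD. CD8A did not pass on the reference-gene scale, at -0.89 ± 0.38 (SE, adjusted exact permutation p = 0.0875) and -0.80 ± 0.37 (SE, adjusted exact permutation p = 0.379). On the panel-mean scale the summed relative level of CD3E, CD4 and CD8A ran from 1.81 to 3.19 in FFC-DIA. It ran from 1.35 to 4.63 in FFC and from 2.07 to 5.97 in SD. Against the reference genes this sum ran from 1.38 to 4.08 in FFC-DIA, 2.05 to 7.75 in FFC and 2.01 to 8.60 in SD. On the reference-gene scale 3 of 15 markers were higher in FFC than in SD, next to 13 of 73 genes over the panel, and against the panel mean 0 of 15 were. Among the 3, MRC1 was higher by 0.86 ± 0.26 (SE, adjusted exact permutation p = 0.0448) and the podocyte gene NPHS1 by 1.54 ± 0.38 (SE, adjusted exact permutation p = 0.0448). Against the panel mean these were 0.34 ± 0.14 (SE, adjusted exact permutation p = 0.373) and 1.02 ± 0.28 (SE, adjusted exact permutation p = 0.117). The part of these markers in the levels of CDKN1A and GSTP1 was not tested.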

How the data were processed

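Kidney cortex RNA of 28 animals was profiled on a microfluidic qPCR chip. The authors made cDNA in replicates, pre-amplified it, curated melting curves and deposited 1 Cq value per assay and animal for 77 assays, not normalized. A deposited table of fold changes relative to SD, corrected by the authors for PCR efficiency, was not used, because many of its cells hold whole numbers, 0 among them, 1 column holds words in the reference gene rows, and the values named GSTP1 do not follow the Cq of GSTP1. All columns of the Cq table were assigned to an animal from the labels (0 were left over). A RefSeq table of pig genes (Sscrofa11.1) lists 72 of the 77 names as symbols, CDKN1A included. GSTP1 is printed as deposited.

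From these values log2 levels were computed by subtracting each Cq from the average of ACTB, TBP1 and RPL4, the references named in the study's methods, with a factor of 2 per cycle and without the efficiency correction. Python 3.11.15, numpy 2.4.6, pandas 2.3.3, scipy 1.17.1 and matplotlib 3.10.9 were used. Pearson and Spearman correlations inside groups were tested with 100000 permutations, or all permutations in groups of 7 and 8, so that the smallest p over all animals is 1e-05. Group comparisons of the 73 genes used exact permutation tests. The threshold was an adjusted p of 0.05. The procedures were tested on simulated data. The study's one-way ANOVA was not repeated.

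CDKN1A and GSTP1 and the gene lists were chosen with earlier results of these data known. Genes named are the pair, the 5 with the largest absolute r to each on each scale, list genes past a test and the 4 reference genes, and some genes are counted but not reported here. Alternatives were single reference genes, all 4, ACTB and TBP1, the panel mean, linear quantities, ranks, removal of 6 late assays (mean Cq over 18), Bonferroni adjustment, the replicate number as a block and each animal left out. Settings that use GAPDH were also run without SD animal 6, after the data had been seen.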

Additional observations from a re-analysis of the deposited data

Results flagged for a closer look

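Among 20 groups of values checked for an animal far from the others (the levels of CDKN1A and GSTP1 on both scales, their ratio, the panel mean and the Cq of the 4 reference genes, in SD and FFC-DIA), 3 stood apart, where chance gives about 1 in 20. None of them was a value of CDKN1A or GSTP1. GAPDH had a Cq of 20.6 in SD animal 6, with the next latest SD animal at 9.26, a gap that is 0.917 of the range. In FFC-DIA animal 6, the animal with the highest CDKN1A, GAPDH had a Cq of 11.2, with the next at 8.76 and a gap of 0.564 of the range. TBP1 had a Cq of 13.2 in SD animal 1, with the next at 11.6 and a gap of 0.642 of the range.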

How the results depend on the processing

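The difference of CDKN1A between FFC-DIA and either other group stayed positive under every alternative run. With GAPDH alone it was 1.34 against SD. Its difference between FFC and SD was 1.09 with RPL4 alone and -1.05 with GAPDH alone. For GSTP1, FFC minus SD was 1.42 with RPL4 alone, -0.72 with GAPDH alone and 0.087 with the panel mean. FFC-DIA minus SD was -0.75 with GAPDH alone, and FFC-DIA minus FFC was 0.73 with ACTB alone and -0.35 with RPL4 alone. These GAPDH values rest on SD animal 6. Without it, a setting chosen after seeing the data, the differences with GAPDH alone were 2.92 (FFC-DIA minus SD) and 0.53 (FFC minus SD) for CDKN1A and 1.05 and 1.07 for GSTP1. The standard deviation within FFC-DIA was, for CDKN1A, 1.31 with RPL4 alone, 1.56 with GAPDH alone and 0.50 with the panel mean, and for GSTP1 0.25 with TBP1 alone, 1.03 with RPL4 alone, 1.10 with GAPDH alone, 0.55 with all 4 reference genes and 0.28 with ACTB and TBP1 or with the panel mean.

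Genes that correlated with CDKN1A inside groups numbered 0 with ACTB alone, 4 with TBP1 alone, 0 with ACTB and TBP1, 0 with the panel mean, 70 with RPL4 alone, 72 with GAPDH alone, 67 with all 4 and 36 by rho. For GSTP1 they numbered 0 with ACTB alone, TBP1 alone, ACTB and TBP1 or the panel mean, 69 with RPL4 alone, 72 with GAPDH alone, 65 with all 4 and 24 by rho. The r between CDKN1A and GSTP1 was -0.047 with ACTB alone, -0.0072 with TBP1 alone, -0.19 with both, -0.13 with the panel mean, 0.83 with RPL4 alone, 0.97 with GAPDH alone, 0.74 with all 4 and 0.60 as rho. Without SD animal 6, r was 0.91 with GAPDH alone and 0.68 with all 4, and the genes that correlated with GSTP1 numbered 70 and 59.

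Between FFC and SD the count of 14 genes was 0 with ACTB alone, TBP1 alone, GAPDH alone, all 4 or ACTB and TBP1, 1 with the panel mean, 53 with RPL4 alone, 8 by ranks and 1 by Bonferroni. Between FFC-DIA and SD the count of 2 was 5 with TBP1 alone, 1 with RPL4 alone, 0 with GAPDH alone or all 4 and 4 with ACTB and TBP1. Between FFC-DIA and FFC the count of 4 was 7 with ACTB alone, 9 with TBP1 alone, 1 with RPL4 alone and 0 with GAPDH alone. Without SD animal 6, GAPDH alone gave 0 genes in FFC vs. SD and in FFC-DIA vs. SD, and all 4 gave 1 and 2. The cause was not tested beyond the terms that each normalization contains.

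With 1 animal left out, the differences of CDKN1A lay between 2.68 and 3.02 (FFC-DIA minus SD), 2.40 and 2.74 (FFC-DIA minus FFC) and 0.16 and 0.40 (FFC minus SD). For GSTP1 they lay between 0.64 and 0.89, 0.057 and 0.27, and 0.47 and 0.72. The standard deviation within FFC-DIA was 0.57 to 0.81 for CDKN1A and 0.35 to 0.44 for GSTP1. The genes correlated with CDKN1A numbered 41 to 55 and with GSTP1 20 to 41, r between the pair was 0.30 to 0.47, and the counts of genes were 0 to 24 (FFC vs. SD), 2 to 3 (FFC-DIA vs. SD) and 4 to 6 (FFC-DIA vs. FFC).

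The replicate block, with same-numbered animals as pairs, gave 0 genes in each of the 3 comparisons, from 7, 7 and 8 pairs whose smallest possible p is 0.0156, 0.0156 and 0.00781. As a block the differences of CDKN1A were 0.15 (FFC minus SD), 2.90 (FFC-DIA minus SD) and 2.64 (FFC-DIA minus FFC), and those of GSTP1 0.81, 0.71 and -0.072. The numbers did not pair the animals: the correlation of same-numbered animals ran from -0.34 to 0.11, from -0.47 to 0.54 and from -0.48 to -0.099. The deposited fold-change table was not run as an alternative, since its values named GSTP1 do not follow the Cq of GSTP1.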
